A study of Mus musculus with 2 samples.

Results

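The aminoacyl-tRNA synthetases were followed in RAW 264.7 cells, a mouse macrophage-like tumour line, as the genes whose single symbol in the platform annotation is a cytosolic synthetase or a mitochondrial form ending in ars2. They came to 26 of the 12393 genes with a single symbol on the array, 18 cytosolic and 8 mitochondrial, read by 48 of 22626 gene probe sets. Of 33 symbols listed for the family, 24 were found, and Ears2 and Pars2 were added as mitochondrial forms. The other 9, which are Dars, Mars, Aars2, Lars2, Mars2, Nars2, Vars2, Wars2 and Yars2, were not analysed here.

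The cells were kept for 4 h with adenosine (300 uM), a nucleoside that signals through receptors on the cell surface, together with IFN-gamma (1000 U/ml), or for 4 h with the same dose of IFN-gamma alone. RNA of 2 experiments was pooled per treatment, and each pool was hybridized to 1 Affymetrix array, so the differences below lack a replicate check and no test was possible. Both groups carry IFN-gamma, and no array of cells without it was analysed here. All 10 macrophage markers examined, Cd68, Csf1r and Adgre1 among them, were measured, and none of the 20 markers of other cell types on the array was (0.282 to 14.1 with adenosine and 0.4 to 7.9 with IFN-gamma alone).

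Aminoacyl-tRNA synthetases join each amino acid to its own tRNA and so supply the ribosome. Mammalian cells use a cytosolic set and, for mitochondrial translation, a second set that is mostly encoded by separate nuclear genes. Gars and Kars each give both forms. The cytosolic enzymes fall into the structurally unrelated classes I and II, and several of them sit in a multi-synthetase complex held together by scaffold proteins. Many cytosolic synthetase genes are known targets of ATF4, the transcription factor of the amino acid response, and the tryptophan enzyme gene Wars is known for its induction by IFN-gamma.

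The arrays were not at a common level. The median deposited signal over gene probe sets was 15.2 with adenosine and 45.9 with IFN-gamma alone, and the median log2 ratio removed by centring was -1.50. Adenosine-array signals are therefore given after multiplication by 2.82, and every ratio below has the adenosine array on top, relative to the median of the arrays. In bulk RNA, fewer cells of a kind and less RNA per cell cannot be told apart. Without this scaling all 26 synthetase genes were lower with adenosine, with log2 ratios from -3.25 to -0.80, and so were spiked-in control transcripts, at a median of -0.53. A floor of 44.0 marked low signals, and genes under it on both arrays were not counted as measured. Scatter among probe sets that read 1 gene, with an SD of 0.42 to 0.56 on the log2 scale depending on signal, is the error given below. Neither culture-to-culture nor array-to-array spread is part of it.

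Of the 26 genes, 25 were measured. Their log2 ratios ran from -1.76 to 0.70 with a median of -0.22, against -0.08 over all 6818 measured genes. Lower by 2-fold or more with adenosine were 4 of 25 (16%), which were Rars2, Iars2, Farsb and Wars, against a background of 10.1% over the 6818 genes. No member was at least 2-fold higher, where the background was 4.52%. Within 0.5 of 0 on the log2 scale were 16 members (64%), against 58.4% of all measured genes. Among measured genes in the signal range of the cytosolic members the share was 65.6%. That range leaves out most of the measured mitochondrial members, which are dimmer and are part of the 64%. Below 0 were 18 members (72.0%), against 56.0% of all measured genes. Pars2, the mitochondrial proline enzyme gene, was under the floor on both arrays, at 29.0 with adenosine and 42.6 with IFN-gamma alone.

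**Figure D1:**
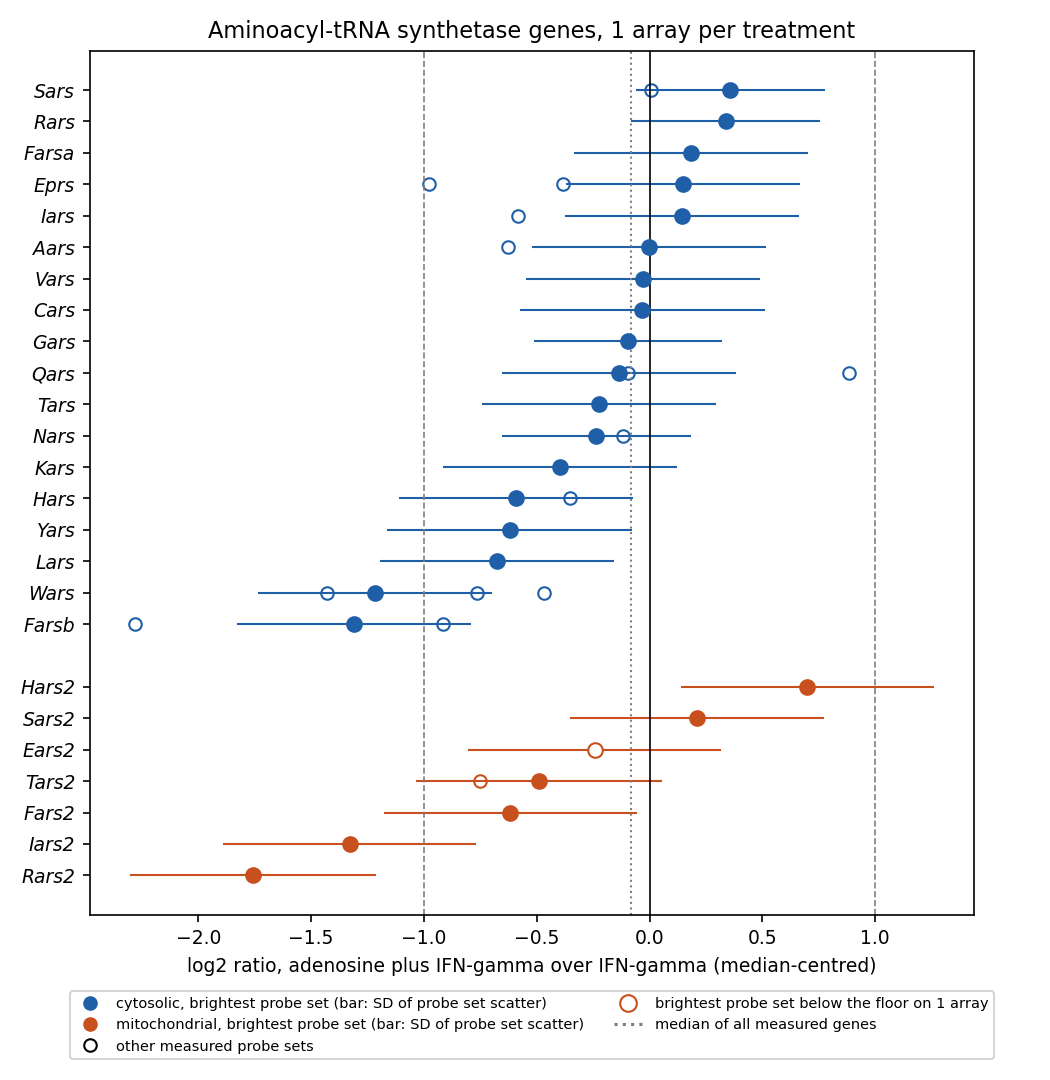
Log2 ratio (adenosine with IFN-gamma over IFN-gamma alone) for each measured synthetase gene (x axis, median-centred), with cytosolic genes above and mitochondrial genes below. Filled points are the brightest probe set with bars of 1 SD of probe set scatter, small open points other measured probe sets, the larger open point of Ears2 a gene under the floor on 1 array, dashed lines 2-fold and the dotted line the median of all measured genes. Rars2, Iars2, Farsb and Wars lie left of the 2-fold line, and no gene lies right of the other; the 7 genes above 0 are negative both unscaled and after scaling on spiked-in controls.

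Among class I enzymes of the cytosol, Wars stood lowest. Wars, which charges tryptophan, had a signal of 488 with adenosine and 1134 with IFN-gamma alone by its brightest probe set, 2.33-fold lower, a log2 ratio of -1.22 with a scatter SD of 0.52. The other 3 Wars probe sets had log2 ratios of -1.43, -0.76 and -0.47, so all 4 were lower with adenosine while 2 of 4 reached 2-fold. Averaged over its 4 probe sets, Wars had a log2 ratio of -0.97, short of 2-fold. Only the probe set at -1.43 has a name not ending in s_at, x_at or a_at. Of all measured genes, 6.50% had a lower ratio than Wars.

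Lars, the leucine enzyme gene, and Yars, the tyrosine enzyme gene, followed. Lars had 809 with adenosine and 1293 with IFN-gamma alone, 1.60-fold lower. Yars had 318 with adenosine and 489 with IFN-gamma alone, 1.54-fold lower. Both ratios, -0.68 and -0.62 on the log2 scale, exceeded the scatter SD of genes of like signal (0.52 and 0.54), and each rests on 1 probe set. The remaining class I enzymes lay within that scatter of 0. Cars, for cysteine, was at 285 with adenosine and 291.5 with IFN-gamma alone, and Vars, for valine, at 635 with adenosine and 648 with IFN-gamma alone. Qars, for glutamine, was at 854 with adenosine and 939 with IFN-gamma alone, a log2 ratio of -0.14. Its dimmest measured probe set stood at 0.88 and the other at -0.10, so the Qars probe sets did not share a direction.

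Iars and Rars, the isoleucine and arginine enzyme genes, had ratios above 0. Iars was at 731 with adenosine and 662 with IFN-gamma alone, a log2 ratio of 0.14, whereas its second probe set gave -0.58. Rars was at 3002 with adenosine and 2376 with IFN-gamma alone, a log2 ratio of 0.34 within its scatter SD of 0.42. Eprs, whose single protein charges glutamate and proline and joins a domain of each class, was at 937 with adenosine and 844 with IFN-gamma alone. Its brightest probe set gave a log2 ratio of 0.15 and the other 2 gave -0.38 and -0.98, so its direction is not settled by these probe sets. All 3 ratios above 0 are negative both unscaled and after scaling on spiked-in controls.

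Among class II enzymes, both subunits of the phenylalanine enzyme were on the array and they differed. Farsb, the beta subunit gene, had a signal of 498 with adenosine and 1233 with IFN-gamma alone, 2.48-fold lower, a log2 ratio of -1.31 with a scatter SD of 0.52. Its other measured probe sets gave -2.28 and -0.92, so all 3 were lower with adenosine. The names of all 3 end in s_at, x_at or a_at. The remaining Farsb probe set was under the floor on both arrays, at 14.7 with adenosine and 41.7 with IFN-gamma alone. Farsa, the alpha subunit gene, was at 583 with adenosine and 513 with IFN-gamma alone, a log2 ratio of 0.18 that is negative both unscaled and after scaling on spiked-in controls. The subunits form 1 tetrameric enzyme, and the log2 ratio of the alpha gene lay above that of every measured probe set of the beta gene.

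Hars, for histidine, was 1.51-fold lower, at 838 with adenosine and 1264 with IFN-gamma alone, and its second probe set gave -0.35 on the log2 scale. Kars, for lysine, had a log2 ratio of -0.40, Nars, for asparagine, -0.24, Tars, for threonine, -0.22 and Gars, for glycine, -0.10, and these 4 lay within their scatter SD. Aars, for alanine, was at 507 on both arrays by its brightest probe set and had a log2 ratio of -0.63 by the second. Sars, for serine, was at 1816 with adenosine and 1417 with IFN-gamma alone. Its log2 ratio of 0.36, within a scatter SD of 0.42, was the highest of the cytosolic genes, its second probe set lay at 0.01, and the ratio is negative both unscaled and after scaling on spiked-in controls.

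Ratios overlapped between the classes and between complex members and other cytosolic genes. The median log2 ratio was -0.08 for 8 class I genes and -0.22 for 9 class II genes, a difference of 0.14. The 6 measured members of the multi-synthetase complex, Eprs, Iars, Kars, Lars, Qars and Rars, had a median of 0.00 and none was 2-fold lower. The 12 cytosolic genes outside it had a median of -0.16, and 2 of them, Farsb and Wars, were 2-fold lower. Beside the 10.1% of all measured genes that were 2-fold lower, counts this small do not set the complex apart. Of the complex scaffold genes, Aimp1 and Aimp2 had log2 ratios of -0.05 and -0.06. Eef1e1, the third scaffold gene, was 1.60-fold lower, at 1163 with adenosine and 1860 with IFN-gamma alone. Eef1e1 thus lay beside Lars, the lowest complex member, at a log2 ratio of -0.68 for both.

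**Figure D2:**
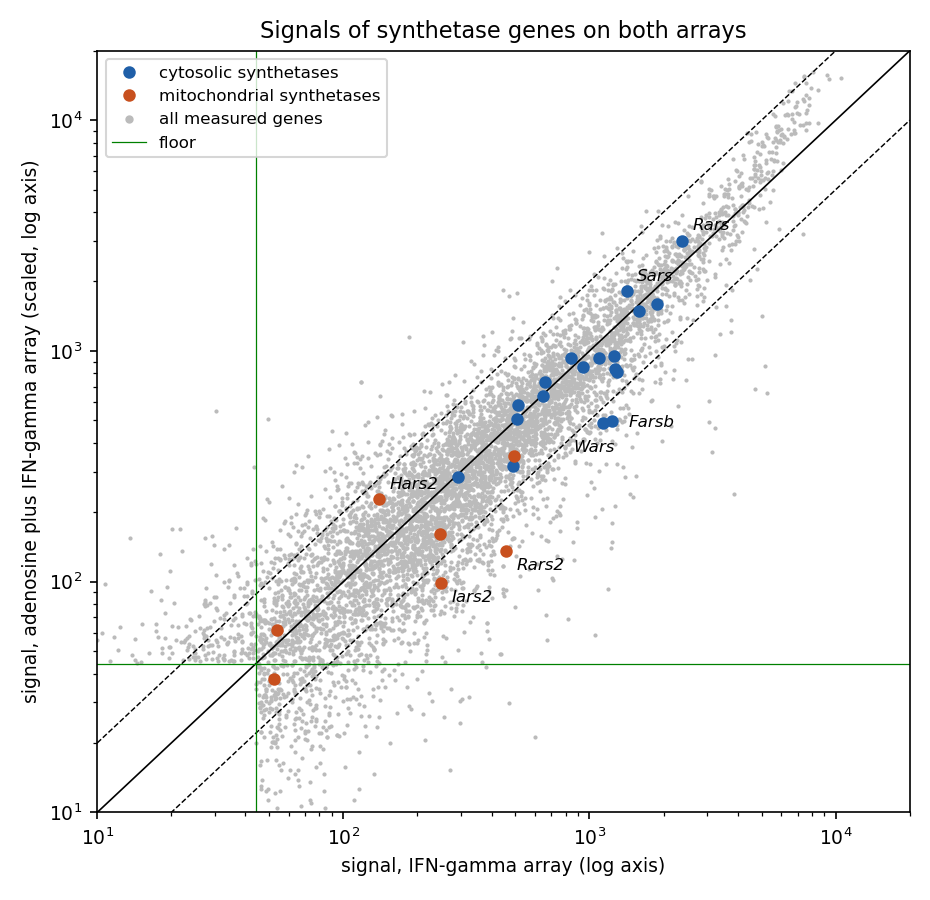
Scaled signal on the adenosine plus IFN-gamma array (y axis, log) against signal on the IFN-gamma array (x axis, log) for synthetase genes (coloured) and all 6818 measured genes (grey, those outside the axes not drawn); solid line equal signal, dashed lines 2-fold, green lines the floor of 44.0. Most synthetases lie along the line of equal signal, with Wars, Farsb, Iars2 and Rars2 below the lower dashed line.

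The mitochondrial enzymes held the lowest ratios of the family and also the highest one. Rars2, the mitochondrial arginine enzyme gene, had 136 with adenosine and 459 with IFN-gamma alone, 3.38-fold lower, a log2 ratio of -1.76 with a scatter SD of 0.54. Iars2, for isoleucine, had 98.9 with adenosine and 248.5 with IFN-gamma alone, 2.51-fold lower, a log2 ratio of -1.33. Each was read by 1 probe set, with a name not ending in s_at, x_at or a_at. Of all measured genes, 2.17% had a lower ratio than Rars2 and 5.28% a lower one than Iars2.

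Fars2, for phenylalanine, was 1.53-fold lower, at 161 with adenosine and 247 with IFN-gamma alone. Tars2, for threonine, had 352 with adenosine and 494 with IFN-gamma alone, a log2 ratio of -0.49, and its second probe set gave -0.75. Ears2, for glutamate, was at 37.8 with adenosine, below the floor, and 52.1 with IFN-gamma alone, at least 1.18-fold lower. Sars2, for serine, was near the floor on both arrays, at 62.0 with adenosine and 53.6 with IFN-gamma alone. Hars2, for histidine, had the highest ratio of the family, with 227 on the adenosine array and 140 with IFN-gamma alone, 1.62-fold higher, a log2 ratio of 0.70 with a scatter SD of 0.56. It rests on 1 measured probe set, and like that of Sars2 its ratio is negative both unscaled and after scaling on spiked-in controls.

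Cytosolic and mitochondrial genes overlapped over most of their range. The cytosolic median log2 ratio was -0.12 over 18 measured genes and the mitochondrial median -0.49 over 7, a difference of 0.37. With the probe sets and measured genes unchanged and no floor, a single scaling factor leaves it at 0.37 by construction, which is no check of it. When the brightest probe sets, the floor and the measured genes were taken anew it was -0.17 unscaled and -0.079 after scaling on spiked-in controls. At least 2-fold lower were 2 of 18 cytosolic genes (11.1%) and 2 of 7 mitochondrial genes (28.6%), beside the 10.1% of all measured genes. The mitochondrial genes were dimmer, and signal moves with the background. Of the 3108 measured genes in the signal range of the cytosolic members 7.95% were 2-fold lower, and 2.96% 2-fold higher, with a median log2 ratio of -0.08. Of the 3915 in the signal range of the mitochondrial members 12.8% were 2-fold lower and 6.23% 2-fold higher, with a median of -0.13. The part of signal in the difference was not tested beyond these values and the loess scaling, under which it was 0.48.

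Enzymes for the same amino acid can be set side by side. In 5 amino acids with 1 measured gene for each compartment, Eprs left aside, the cytosolic log2 ratio by the brightest probe set was the higher in 4. The gap was largest for arginine, where Rars at 0.34 and Rars2 at -1.76 differed by 2.10 ± 0.69 (SD from probe set scatter). For isoleucine, Iars at 0.14 and Iars2 at -1.33 differed by 1.47 ± 0.76. That gap was 0.75 by the second Iars probe set and 0.73 with the floor at the 67th percentile, both inside the scatter. For histidine the order was the other way, with Hars at -0.59 and Hars2 at 0.70, a difference of -1.29 ± 0.76. Threonine and serine showed gaps of 0.27 ± 0.75 and 0.15 ± 0.70, inside the scatter. The second Sars probe set, at 0.01, lay below Sars2 at 0.21, so the serine order is not settled. The 2 histidine genes are direct neighbours among the protein-coding genes of chromosome 18 in the RefSeq annotation of GRCm38.p6. Fars2 at -0.62 lay between the cytosolic phenylalanine subunits. Ears2, under the floor with adenosine, had an upper limit of -0.24, which is 0.39 below the brightest Eprs probe set, with a scatter SD of 0.76. The other Eprs probe sets, at -0.38 and -0.98, lay below that limit, so the order of Eprs and Ears2 is not settled.

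**Figure D3:**
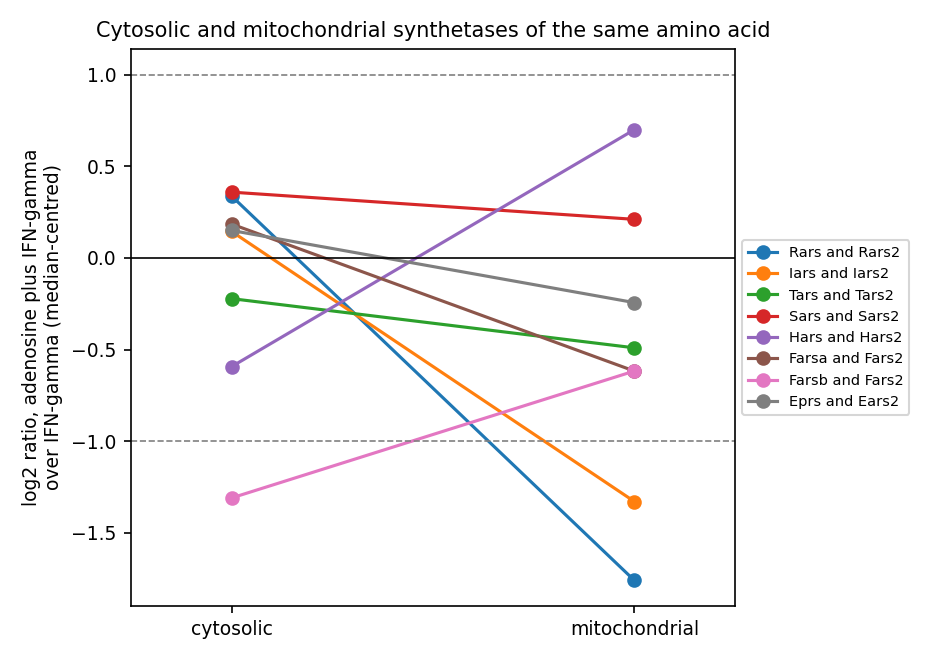
Log2 ratio, adenosine with IFN-gamma over IFN-gamma alone (y axis, median-centred) for cytosolic (left) and mitochondrial (right) synthetase genes of the same amino acid, joined by lines; dashed lines mark 2-fold. The lines of arginine and isoleucine drop by 2.10 and 1.47 toward the mitochondrial gene, and that of histidine runs the other way; the Ears2 point is an upper limit, and points above 0 are negative both unscaled and after scaling on spiked-in controls.

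Promoter sequences from 250 bases before to 50 after a transcription start were taken from RefSeq (GRCm38.p6) for 16 of the 26 genes. Those of Aars, Cars, Hars, Hars2, Lars, Nars, Pars2, Rars, Vars and Wars were not used here. The core of the amino acid response element that ATF4 binds, searched as TGATGNAA on both strands with N any base, was present in 4 of the 16, against 3.97% of 32851 promoters in the table. All 4 belong to cytosolic genes, of which 10 were searched, and none of the 6 mitochondrial promoters held the core. The 4 matches are shown with 15 bases on each side, 5′ to 3′ along the gene's strand and with the core in capitals, since they are what these promoters share. Matches of letters are a description and not evidence of binding.
Gars, chr6:55037956-55037993, plus strand: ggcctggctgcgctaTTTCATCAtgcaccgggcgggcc
Iars, chr13:49682122-49682159, plus strand: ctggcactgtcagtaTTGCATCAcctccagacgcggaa
Tars, chr15:11399651-11399688, minus strand: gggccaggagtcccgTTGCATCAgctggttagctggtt
Yars, chr4:129189891-129189928, plus strand: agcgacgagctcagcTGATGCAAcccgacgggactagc
The core began between 30 bases before the start and base 8 of the transcript. It was TTGCATCA, the reverse strand of the core, in Iars and Tars, the related TTTCATCA in Gars, and TGATGCAA in Yars.

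The 4 genes with the core had log2 ratios of 0.14 for Iars, -0.10 for Gars, -0.22 for Tars and -0.62 for Yars, a median of -0.16. The 6 cytosolic genes without it had a median of 0.0064 and a range from -1.31 to 0.36, and the 6 mitochondrial genes, all without it, a median of -0.55. These ranges overlap. The gamma-activated site, searched as TTCNNNGAA, was found in Kars of the 16 and in 8.30% of all promoters. The interferon-stimulated response element, searched by its consensus, was found in Qars and in 3.44% of all promoters. The cAMP response element TGACGTCA was found in none of the 16 and in 1.79% of all. Both strands were searched for each, and no match of one motif overlapped one of another.

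Rars2, Iars2 and Farsb, which were 2-fold lower, held none of these letters in their promoters, which says nothing of any factor outside or inside this window. They are given whole, 5′ to 3′, with the first transcribed base in capitals.
Rars2, chr4:34614707-34615006, plus strand: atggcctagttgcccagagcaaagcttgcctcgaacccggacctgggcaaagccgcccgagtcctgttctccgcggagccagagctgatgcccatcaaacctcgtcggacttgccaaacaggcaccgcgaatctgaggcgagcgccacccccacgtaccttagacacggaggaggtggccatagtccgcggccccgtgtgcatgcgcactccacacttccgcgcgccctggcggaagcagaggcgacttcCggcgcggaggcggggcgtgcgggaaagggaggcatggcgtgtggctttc
Iars2, chr1:185329352-185329651, minus strand: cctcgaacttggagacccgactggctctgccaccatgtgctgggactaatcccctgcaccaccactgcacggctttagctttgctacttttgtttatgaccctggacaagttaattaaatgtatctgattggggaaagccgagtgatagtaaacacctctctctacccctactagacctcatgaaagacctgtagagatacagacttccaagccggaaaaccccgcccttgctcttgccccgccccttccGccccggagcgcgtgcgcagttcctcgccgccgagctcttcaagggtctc
Farsb, chr1:78488848-78489147, minus strand: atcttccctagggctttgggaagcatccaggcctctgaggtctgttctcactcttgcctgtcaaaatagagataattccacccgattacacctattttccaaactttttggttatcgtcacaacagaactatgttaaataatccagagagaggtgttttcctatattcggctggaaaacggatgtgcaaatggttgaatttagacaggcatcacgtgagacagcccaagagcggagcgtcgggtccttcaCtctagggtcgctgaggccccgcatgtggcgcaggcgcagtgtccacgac
Bases G and C made up 66.3% of the Rars2 promoter, 55.0% of that of Iars2 and 49.3% of that of Farsb, so the lowest members did not share a base composition.

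Of 20 listed partners of tRNA charging 14 were on the array and measured, and none reached 2-fold in either direction, against backgrounds of 10.1% lower and 4.52% higher. Of these 14, which mature, modify, export or edit tRNA or charge it by side routes, 8 lay below 0 and 6 above, and their median log2 ratio was -0.18. The largest were Trnt1, which adds the CCA end to tRNA, 1.98-fold lower at 247 with adenosine and 491 with IFN-gamma alone, and Xpot, the nuclear exporter of tRNA, 1.79-fold lower. Aarsd1, an editing protein related to the alanine enzyme, was 1.49-fold higher. By its second probe set Trnt1 was at -0.19 on the log2 scale, and the Aarsd1 ratio becomes negative without centring.

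Elongation factors, the consumers of charged tRNA, had a median log2 ratio of 0.33 over 7 measured genes. Eef1a1, which delivers charged tRNA to the ribosome, was 2.10-fold higher, and Eef2, the translocation factor, 1.52-fold higher. Measured genes at least as bright as Eef2 had a median log2 ratio of 0.62 (87 genes), and without scaling Eef1a1 and Eef2 are lower with adenosine. Gfm1, a mitochondrial elongation factor gene, was 1.60-fold lower. The other measured mitochondrial factor genes, Gfm2 and Tufm, had log2 ratios of -0.36 and 0.53, so these genes did not share a direction.

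The amino acid response list, which holds ATF4 with enzymes and transporters of amino acid supply, spread far wider than the synthetases. Of its 29 measured genes 6 (20.7%) were lower and 3 (10.3%) higher by 2-fold or more, against backgrounds of 10.1% and 4.52%. Atf4 itself was at 860 with adenosine and 1849 with IFN-gamma alone, a log2 ratio of -1.10 by its brightest probe set. Its other measured probe set, at 112 with adenosine and 932.5 with IFN-gamma alone, gave -3.05, so the size of the Atf4 ratio is not settled. Also 2-fold lower were the response genes Chac1, Ddit3, Trib3, Nupr1 and Atf3, while the cystine transporter gene Slc7a11 and the stress genes Ddit4 and Sesn2 were 2-fold higher. Chac1 and Trib3 were under the floor with adenosine, at 26.8 and 37.5, so their ratios are limits. Slc7a11 and Sesn2 were near the floor of 44.0 with IFN-gamma alone, at 47.1 and 63.3. By its second probe set Sesn2 had a log2 ratio of 0.92, short of 2-fold. Unscaled, the log2 ratios of Slc7a11, Ddit4 and Sesn2 were 0.50, 0.46 and 0.74, so none of the 3 was then 2-fold higher. The list median was -0.26, close to the -0.22 of the synthetases, and 17 of its 29 members (58.6%) lay beyond their scatter SD, against 9 of 25 synthetases (36.0%) and 39.2% of all measured genes.

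**Figure D4:**
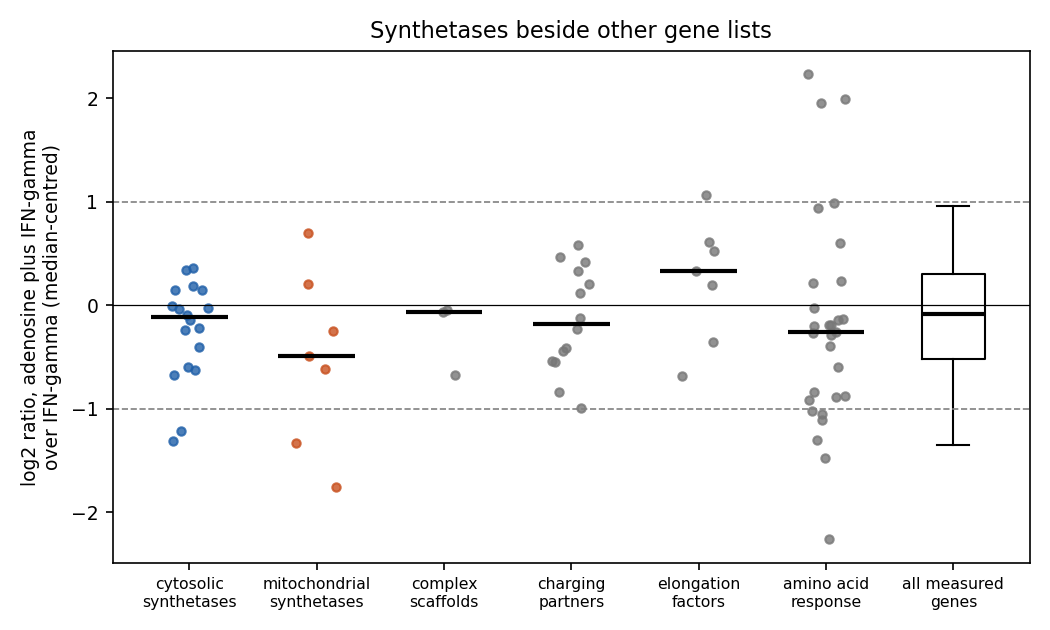
Log2 ratio, adenosine with IFN-gamma over IFN-gamma alone (y axis, median-centred) for each measured gene of the synthetases and of the lists named on the x axis, with black bars at list medians; the box of all measured genes shows quartiles with whiskers at the 5th and 95th percentiles, and dashed lines mark 2-fold. The cytosolic synthetases keep between -1.31 and 0.36, whereas the amino acid response list runs from -2.26 (Chac1) to 2.23 (Sesn2). The Chac1 point is an upper limit, as its adenosine signal was under the floor, and the second Sesn2 probe set gave 0.92. Values above 0 shift downward without centring.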

How the data were processed

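Each treatment was 1 Affymetrix array of RNA pooled from 2 experiments, so there was no replicate and no test. The deposited intensity values are linear probe set signals. Per the submitters' processing notes GCOS was used; how it computed and scaled signals is not given in the sources used here. The log2 ratio was centred on its median over gene probe sets at or above the 50th percentile of the deposited signals on both arrays. The floor was the 50th percentile of the scaled signals, 44.0. A gene under it on both arrays was not measured, and a dimmer signal was raised to it, with the fold given as "at least". The brightest probe set (mean of both arrays) stood for a gene. Symbols came from the platform annotation, and all 26 genes matched RefSeq by Entrez identifier.

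The scatter SD is that of differences between the 2 brightest probe sets of 2375 genes, divided by the square root of 2, in 4 groups by signal. Genes were counted at 2-fold. Alternatives were other scalings, a pseudocount of 16, a lower (33rd percentile) or higher (67th) floor, other probe set choices, and thresholds of 1.5-fold and 3-fold. The probe set choices were the mean of all measured probe sets, and the brightest without names ending in s_at, x_at or a_at.

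All synthetases were named whatever their value. Of other lists, genes at 2-fold or the 3 largest were named, with Gfm2 and Tufm added beside Gfm1. Members and lists were chosen with earlier results of these data known. Python 3.11.15 with pandas 2.3.3 and statsmodels 0.14.6 was used. Precision is limited by having 2 arrays. The result for 1 promoter of the family is not reported here, and it was left out of the motif counts.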

Additional observations from a re-analysis of the deposited data

How the results depend on the processing

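No paired analysis was possible because there is a single array for either treatment, so none can be left out. Without scaling the cytosolic median log2 ratio was -1.72, the mitochondrial median -1.56 and their difference -0.17, and 24 synthetases were at least 2-fold lower. After scaling on spiked-in controls the cytosolic median was -1.20, the mitochondrial median -1.12, their difference -0.079 and 16 were 2-fold lower. In both, brightest probe sets, floor and measured genes were taken anew. With those of the centred values kept and no floor, a setting added after seeing the data, the difference was 0.37 in both. A single factor shifts every log2 ratio alike and cannot change it, so that setting is no check of the difference. Under the other scalings, floors, pseudocount and probe set choices the cytosolic median ran from -0.23 to -0.03, and 3 or 4 synthetases were at least 2-fold lower. Without probe sets whose names end in s_at, x_at or a_at the mitochondrial median was -0.79 over 4 genes. Of the mitochondrial genes Fars2, Hars2, which had the highest ratio, and Tars2 then had no measured probe set, and neither did Farsb. A 1.5-fold threshold gave 8 lower synthetases and 1 higher, Hars2, and a 3-fold threshold gave 1 lower, Rars2. With the floor at the 67th percentile Iars2 had a log2 ratio of -0.59, because its adenosine signal was raised to that floor. Of the 10 scaling, floor, pseudocount and probe set alternatives, 14 genes stayed below 0 under each that gave them a value, Rars2, Iars2 and Wars under all 10 and Farsb, Ears2, Fars2 and Tars2 under 9. Of the others below 0, Aars, Cars, Qars and Vars turned above 0 under at least 1 alternative. All 7 genes above 0 turned negative without scaling and on spiked-in controls, and Eprs, Iars and Sars2 also under another alternative. Unscaled and on spiked-in controls every synthetase with a value was below 0, so those settings are no check of a ratio below 0. Floors and the pseudocount act on the centred signals and cannot reverse a ratio. For Rars2 and Iars2, each with 1 probe set, the probe set choices repeat the main value. Without Wars the cytosolic median was -0.10, and without Gars and Kars -0.08.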
